A study of Mus musculus with 18 samples.

Results

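The circadian clock genes described here are 10 genes of the core transcriptional clock, Arntl, Clock, Npas2, Per1, Per2, Per3, Cry1, Cry2, Dbp and Tef. They were taken by gene symbol from the 22708 genes of the deposited table, and 10 of 10 were found. The samples come from a study of the aryl hydrocarbon receptor (AHR) in mouse intestinal eosinophils, which were sorted from the small intestine as CD11b+ MHC-II- SiglecF+ cells with high side scatter and sequenced in bulk as single-ended reads. There were 18 samples, 6 labelled wildtype (WT), 6 labelled Ahr knockout (Ahr-/-) and 6 labelled Ahrr knockout (Ahrr-/-), each with 3 females (F1 to F3) and 3 males (M1 to M3). The mice were untreated C57BL/6 animals, and the methods give an age range of 6 to 14 weeks for the whole study. The methods state that Ahr-/- mice and WT controls were neither littermates nor cohoused, so litter and housing cannot be told apart from genotype. The paper counts its replicates as mice, and no batch is named. The time of day of collection is not given in the labels or the methods, so time of day and group cannot be told apart.

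In the mammalian clock, BMAL1 (the product of Arntl) pairs with CLOCK or with its close relative NPAS2, and the pair binds E-box sequences and activates, among others, the Per and Cry genes. PER and CRY proteins then return to the nucleus and repress the pair, which closes a loop of about a day. DBP and TEF are PAR bZIP transcription factors that bind D-box sequences and carry the rhythm to output genes. BMAL1, CLOCK and NPAS2 belong to the bHLH-PAS family, as do AHR, its partner ARNT and the AHR repressor encoded by Ahrr.

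Values are the variance-stabilized expression that the authors deposited, on a log2 scale on which 5.02 stands for a count of 0. The total count per sample, recovered from these values, was between 3842977 and 8149200 in WT (median 6022410), between 6581818 and 10284124 in Ahr-/- (median 9647590) and between 8788867 and 12046933 in Ahrr-/- (median 10371556). WT F3 and Ahr-/- F3 stood apart from the other libraries, with a count for 20244 and 19694 genes, where the other 16 samples had 15146 to 17236. The limma calls of clock genes and the called pair of clock genes reported below were the same without these 2 libraries. Every Ahrr-/- library had a higher total count than every WT library, as did each Ahr-/- library but M1 and M2. A fit with the total count as a covariate therefore cannot tell it apart from genotype between Ahrr-/- and WT. Between Ahr-/- and WT it can do so only in part.

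The targeted genes were examined first. In WT, Ahr was 13.52, 14.26 and 13.78 for females F1 to F3 and 14.40, 13.74 and 13.40 for males M1 to M3. In the libraries labelled Ahr-/- it was 14.56, 14.63 and 14.22, then 14.55, 14.67 and 14.15, and in those labelled Ahrr-/- it was 14.42, 14.17 and 13.24, then 13.46, 13.56 and 13.03. The Ahr transcript was thus not lower in the libraries labelled Ahr-/- (difference from WT 0.61, standard error 0.19, limma adjusted p = 0.0557). Ahrr, a direct target of AHR, was 9.79, 10.04, 10.23, 10.09, 10.39 and 10.14 in WT and 10.93, 10.63, 10.11, 9.95, 10.65 and 10.10 in the libraries labelled Ahrr-/- (F1 to F3, then M1 to M3). In the libraries labelled Ahr-/- it was 5.02, 5.26, 5.79, 5.02, 5.37 and 5.24 in the same order, with 0 to 10 counts per library. The Ahrr transcript was therefore near 0 in Ahr-/- and was not lower in Ahrr-/- than in WT (0.28, standard error 0.18, limma adjusted p = 0.683). Counts summed over a gene cannot show the loss of 1 exon, and the groups are used as labelled.

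Of 12 eosinophil markers (Siglecf, Ccr3, Epx and others), 12 were detected, and their summed normalized counts were between 17666 and 53496 per sample. Alox15 was the most abundant, with a mean of 19100 normalized counts, and Ear6 had a median count of 0. Epx, Ear2 and Prg3 were also low, with medians of 11.6, 4.41 and 1.96 normalized counts, and Prg3 was at 0 in 6 samples. Markers of other cells were present as well. The epithelium markers summed to between 7422 and 55698 normalized counts, with Lyz1 the most abundant. Among the neutrophil markers Retnlg was the most abundant (mean 50360), while Ly6g, Elane, Mpo and Camp had a median count of 0. The macrophage or dendritic cell markers summed to between 386 and 8248, the mast cell markers to between 59 and 542 and the B or plasma cell markers to between 90 and 6088. The T cell or innate lymphocyte markers summed to between 3 and 146, the pancreatic acinar markers to between 16 and 3571 and the fibroblast markers to between 38 and 1557. The endothelium markers, among which Pecam1 was the most abundant, summed to between 1752 and 3826, and the markers of dividing cells to between 2305 and 9655.

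To compare levels between genes, normalized counts were divided by the length of the gene's exons in kilobases. Per1, a repressor, had the highest level of the 10 clock genes, with 126 to 736.4 normalized counts per kilobase over the 18 samples and a median of 286. The PAR bZIP factor Tef followed with a median of 47.6 per kilobase, then the repressor Cry1 with 39.8, the activator Clock with 36.8 and the repressor Per2 with 35.0. Arntl, the obligate partner of CLOCK and NPAS2, had a median of 18.7 per kilobase. Cry2 with 12.6, the activator Npas2 with 6.86, Per3 with 4.28 and Dbp with 3.52 closed the order. Per1 was above Tef in 18 of 18 samples and their ranges did not overlap. Each of the other genes overlapped in range with the next in this order. Dbp had 3.27 to 24.9 normalized counts per sample, and its mean was less than 1 above the lowest value, so 9 of the 10 clock genes entered the tests.

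**Figure D1:**
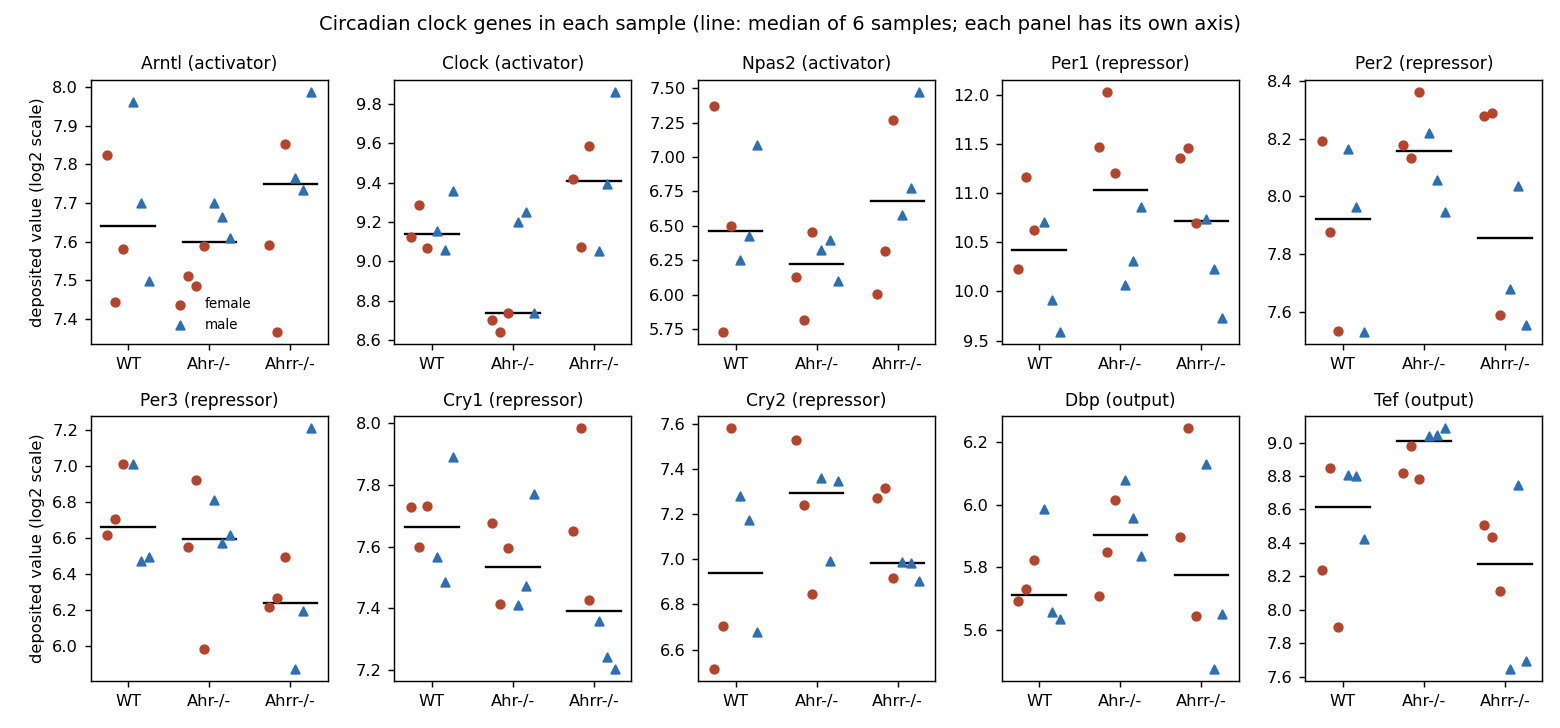
Deposited values (log2 scale, vertical axis) of the 10 clock genes in each of the 18 samples, by genotype, with females as circles, males as triangles and the median of 6 samples as a line. Tef lies at 8.78 or above in the 6 Ahr-/- samples, and the Per1 values of females lie mostly above those of males.

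The spread between animals of the same genotype and sex differed among the clock genes. It was largest for Npas2, with a pooled SD of 0.52 on the log2 scale, which 4.8% of all genes tested exceeded, and for Per1, with 0.47, exceeded by 7.66%. The other repressors were at 0.38 for Per3, 0.33 for Cry2, 0.28 for Per2 and 0.18 for Cry1. Tef was at 0.35 and Clock at 0.24. Arntl was among the least variable genes, with 0.17, a value that 89.5% of all genes exceeded. The median over all genes tested was 0.26.

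Promoters, 250 bases before to 50 after a gene's start, were matched in RefSeq (GRCm38.p6) for 9 of the 10 clock genes, 14 promoters in all, and Per2 was not matched. They are shown for the 4 genes that the comparisons and correlations below turn on, each at the farthest upstream of the starts that the promoter table lists for it. For Per1, Npas2 and Tef that start lies inside the span given for the gene below. Searched on both strands, the E-box CACGTG was found in 4 of the 14, those of Cry1, Per1 and Tef (both starts), and in 7.15% of all 32851 promoters. The AHR core GCGTG was found in 9 of the 14, from each matched gene but Arntl (for Tef and Per1 in the start not shown), and in 32.4% of all promoters, the D-box TTATGTAA in 1 (Per3) and in 0.938%, the CRE TGACGTCA in 0 and in 1.79%, and the ROR element AGGTCA in 3 (Arntl, Clock and Per1) and in 16.3%. None of these motifs contains another. The E-box began 127 bases before this start in the Tef promoter and 166 bases before it in the Per1 promoter shown. Capitals mark the matches on either strand, which are CACGTG in Tef and Per1, the reverse complement of AGGTCA in Per1, GCGTG in Npas2 and its reverse complement in Clock. A match describes the letters only.
Tef (chr15:81802423-81802722, plus strand): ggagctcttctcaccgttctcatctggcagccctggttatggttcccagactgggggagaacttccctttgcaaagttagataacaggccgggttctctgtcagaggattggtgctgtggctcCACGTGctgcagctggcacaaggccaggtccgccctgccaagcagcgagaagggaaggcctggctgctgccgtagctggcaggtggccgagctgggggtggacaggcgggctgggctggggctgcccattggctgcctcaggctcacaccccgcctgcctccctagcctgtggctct
Per1 (chr11:69098699-69098998, plus strand): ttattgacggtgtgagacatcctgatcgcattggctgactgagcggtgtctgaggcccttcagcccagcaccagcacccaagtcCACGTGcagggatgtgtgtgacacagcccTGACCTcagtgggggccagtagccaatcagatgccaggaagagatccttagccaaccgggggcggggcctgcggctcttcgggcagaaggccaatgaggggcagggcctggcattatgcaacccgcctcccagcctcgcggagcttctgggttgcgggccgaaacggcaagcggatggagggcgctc
Clock (chr5:76304743-76305042, minus strand): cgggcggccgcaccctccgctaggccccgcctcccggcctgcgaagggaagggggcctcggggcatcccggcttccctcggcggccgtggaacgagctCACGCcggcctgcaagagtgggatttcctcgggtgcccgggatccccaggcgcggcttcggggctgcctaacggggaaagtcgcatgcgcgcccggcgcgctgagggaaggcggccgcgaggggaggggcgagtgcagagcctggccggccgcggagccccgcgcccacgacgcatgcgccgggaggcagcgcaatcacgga
Npas2 (chr1:39194022-39194321, plus strand): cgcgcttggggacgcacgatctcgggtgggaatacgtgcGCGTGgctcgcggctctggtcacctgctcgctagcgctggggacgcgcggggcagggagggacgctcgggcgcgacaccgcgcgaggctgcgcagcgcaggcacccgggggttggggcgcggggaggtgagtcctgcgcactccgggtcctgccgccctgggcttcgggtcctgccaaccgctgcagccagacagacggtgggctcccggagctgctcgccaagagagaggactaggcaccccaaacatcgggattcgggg

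The first comparison, Ahr-/- against WT, asks how the loss of AHR affects the eosinophil transcriptome. Here 0 of the 9 clock genes tested passed an adjusted p of 0.05 with limma, where 1003 of 11346 genes did (8.84%), between 623 and 1124 with 1 sample left out. At an unadjusted p under 0.05 there were 3 clock genes (Tef, Per1 and Clock) and 2638 genes of all tested. Limma voom on the recovered counts called 1 clock gene, Tef, and 1061 genes. Tef (chromosome 15 of GRCm38, 81802421 to 81826863) was lowest at 7.90, at a median of 8.61 and highest at 8.85 in WT, and at 8.78, 9.01 and 9.08 in Ahr-/-. All 6 Ahr-/- samples were above the WT median, with WT F2, M1 and M2 reaching the lower Ahr-/- values, so the ranges overlapped. The Tef difference was 0.45 (standard error 0.14, 95% interval 0.16 to 0.75, adjusted p = 0.0515). It passed the threshold with the stricter minimum mean (adjusted p = 0.0440), with quantile normalization (0.0347) and with voom (0.0347). With the replicate label as a block it passed as well (limma adjusted p = 0.0382), though the labels are not known to pair samples. It also did so without WT F2 (0.56, adjusted p = 0.00813) or without WT M1 (0.49, adjusted p = 0.0467). The difference was smallest with the total count as a covariate (0.22, adjusted p = 0.769). The adjusted p lay between 0.0347 and 0.769 over the settings of the analysis and between 0.00813 and 0.121 with 1 sample left out. Without WT F3 and Ahr-/- F3 it differed by 0.37 (adjusted p = 0.131). In bulk samples, fewer cells of a type and less RNA per cell cannot be told apart.

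Among the activators, the 3 differences between Ahr-/- and WT were negative and none passed. Clock (chromosome 5, 76209868 to 76304792) was at 9.06, 9.14 and 9.36 (lowest, median and highest) in WT and at 8.64, 8.74 and 9.25 in Ahr-/-. The 4 Ahr-/- samples F1, F2, F3 and M3 were below every WT sample, while M1 and M2 lay within the WT range. The Clock difference was -0.30 (limma, standard error 0.11, adjusted p = 0.121), and -0.097 with the total count as a covariate (adjusted p = 0.886). Npas2 differed by -0.36 (standard error 0.23, adjusted p = 0.369), a sign that turned with the epithelium markers as a covariate, an alternative chosen after seeing the data (0.06, adjusted p = 0.876). Arntl (chromosome 7, 113207465 to 113314126) was between 7.44 and 7.96 in WT and between 7.48 and 7.70 in Ahr-/-, and differed by -0.08 (standard error 0.11, 95% interval -0.31 to 0.16).

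The repressors went in both directions. Per1 (chromosome 11, 69095217 to 69109960) was at 9.59, 10.43 and 11.17 in WT and at 10.06, 11.03 and 12.03 in Ahr-/-, and the 3 Ahr-/- females were above every WT sample while the males lay within the WT range. The Per1 difference was 0.62 (limma, standard error 0.22, adjusted p = 0.0949), and it passed the threshold without WT M1 (0.79, adjusted p = 0.0175). With the total count as a covariate it was 0.11 (adjusted p = 0.936), and over the settings the adjusted p lay between 0.0625 and 0.936. Per2 differed by 0.27, Cry2 by 0.23, Cry1 by -0.11 and Per3 by -0.14, with adjusted p between 0.238 and 0.639 from limma. The median difference of the 9 clock genes was -0.08, and that of all genes tested was -0.0041. Without the minimum mean, Dbp, a D-box activator like Tef, differed by 0.15 (limma, standard error 0.12, adjusted p = 0.681).

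Of 23 other clock genes, 16 were tested and 1 passed, Csnk1e, a kinase of PER proteins, which fell by 0.48 in Ahr-/- (limma, standard error 0.13, adjusted p = 0.0355). Of 16 bHLH-PAS genes outside the clock genes described here, 8 were tested and 3 passed, each lower in Ahr-/-. These were Ahrr (-4.83, adjusted p = 4.95e-12), Hif1a (-0.84, adjusted p = 0.0100) and Epas1 (-0.65, adjusted p = 0.0483), the last 2 encoding hypoxia-inducible factors. Arnt differed by -0.13 (adjusted p = 0.575). Of 10 immediate early genes, 1 passed, Atf3 (-1.42, adjusted p = 3.40e-06), and the next largest differences were those of Egr1 (-0.73) and Dusp1 (0.54), which did not pass. Of 7 glucocorticoid-responsive genes, Sgk1 was higher (0.67) and Ddit4 (-0.56) and Errfi1 (-0.51) were lower, all 3 past the threshold in limma.

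Several cell markers moved along with this comparison. With the summed epithelium markers as a covariate, Tef differed by 0.35 (adjusted p = 0.179), Per1 by 0.30 (adjusted p = 0.417) and Clock by -0.31 (adjusted p = 0.165), and the part of the other lists was not tested. Of the 5 neutrophil markers tested 2 were higher in Ahr-/-, and the list summed to 24411, 36411 and 49335 normalized counts (lowest, median and highest) in WT and to 56484, 84818 and 114588 in Ahr-/-, most of it Retnlg. Of 8 eosinophil markers tested, 2 were higher and 1 lower, with sums of 31485, 42452 and 46341 in WT and 41215, 48294 and 53496 in Ahr-/-. Of 9 epithelium markers 2 were lower, with sums of 7812, 11064 and 21677 in WT and 7422, 8748 and 10875 in Ahr-/-. Of 6 pancreatic acinar markers tested 3 were lower, with a median sum of 1127 in WT and 29 in Ahr-/-, Ctrb1 being the most abundant and Amy2a5 at a median count of 0. The 1 endothelium marker tested, Pecam1, and 1 of 5 markers of dividing cells were also lower. No marker of the other lists passed in limma.

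The second comparison set the libraries labelled Ahrr-/- against the same 6 WT samples, so its values are not independent of the first. It asks whether the gene of the AHR repressor bears on the same transcripts. With limma 0 of 9 clock genes passed, where 9 of 11546 genes did (0.0779%), between 4 and 25 with 1 sample left out. At an unadjusted p under 0.05 there were 0 clock genes and 853 genes, and voom called 0 clock genes and 4 genes. The differences were 0.05 for Arntl, 0.22 for Clock and 0.18 for Npas2, 0.33 for Per1, 0.03 for Per2 and -0.34 for Per3, -0.19 for Cry1, 0.07 for Cry2 and -0.31 for Tef, with adjusted p of 0.680 and above. The signs of Arntl, Npas2, Per2, Cry2 and Tef turned under at least 1 other setting. Dbp, without the minimum mean, differed by 0.09 (standard error 0.15). Tef was at 7.65, 8.27 and 8.74 in Ahrr-/-, within or below the WT range, and Clock at 9.05, 9.41 and 9.86, where F1, F3, M2 and M3 exceeded the highest WT value. Of the other clock genes 0 of 16 passed. The largest differences were those of the repressor of Arntl transcription Nr1d1 (0.89), Usp2 (0.40) and Csnk1d (-0.35). None of the tested bHLH-PAS, immediate early or glucocorticoid-responsive genes passed, and Ahr differed by -0.20 and Arnt by -0.11. Of 5 neutrophil markers tested 2 were higher, and no other marker passed. Without passing, all 9 epithelium, 8 macrophage or dendritic cell and 4 fibroblast markers tested were higher (median differences 0.58, 0.72 and 0.95). All 7 pancreatic acinar markers tested were lower (-1.01), as were 7 of 8 eosinophil markers. The epithelium sum had a median of 11064 in WT and 29349 in Ahrr-/-. With it as a covariate the signs of Arntl, Npas2 and Tef turned, and the part of the other lists was not tested.

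**Figure D2:**
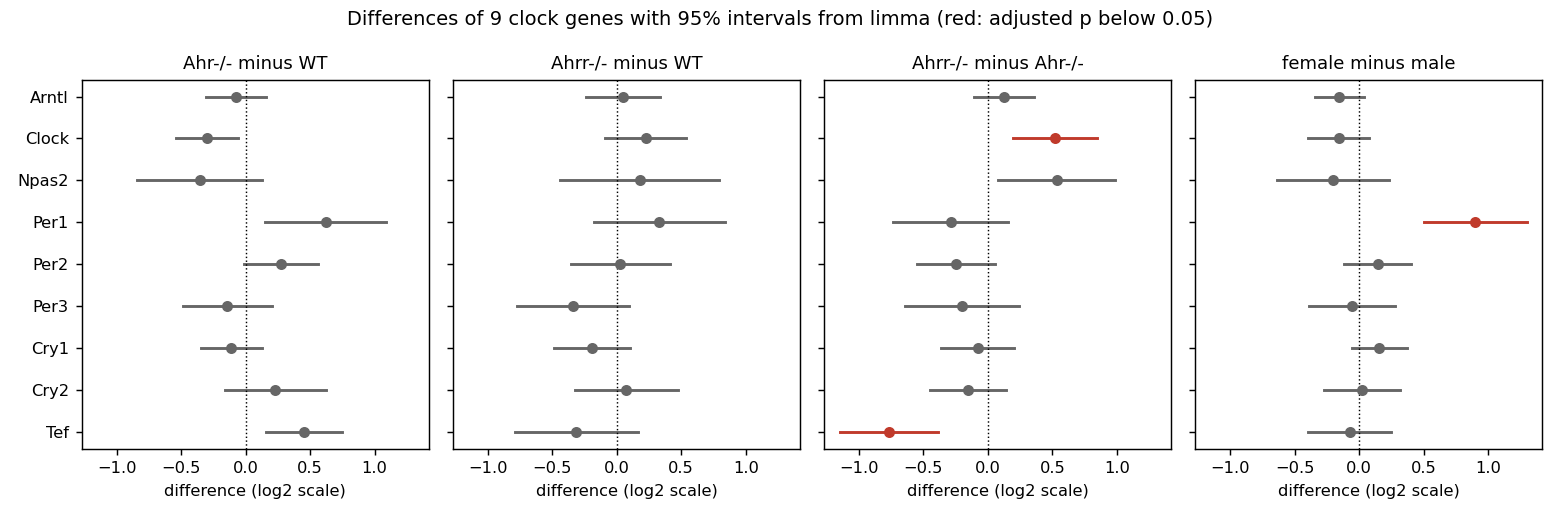
Differences of the 9 tested clock genes (log2 scale, horizontal axis) with 95% intervals from limma in the 3 genotype comparisons and between the sexes. Points in red passed an adjusted p of 0.05, which are Clock (0.52) and Tef (-0.77) between Ahrr-/- and Ahr-/- and Per1 (0.90) between the sexes.

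The direct comparison of both knockouts, Ahrr-/- minus Ahr-/-, gave 2 clock genes past the threshold of 9 tested, where 1708 of 11474 genes passed (14.9%). The number of genes passing was between 818 and 2574 with 1 sample left out and 215 with the epithelium markers as a covariate. Tef was lower and Clock was higher in Ahrr-/-. Both were also called by voom, which called 1993 genes. At an unadjusted p under 0.05 there were 3 clock genes, the third being Npas2, and 3760 genes of all tested. Of the 1708 genes called by limma, 923 were higher and 785 lower in Ahrr-/-. Scaling moved this split, with 811 higher and 1043 lower after quantile normalization.

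Tef was at 8.78, 9.01 and 9.08 (lowest, median and highest) in Ahr-/- and at 7.65, 8.27 and 8.74 in Ahrr-/-. Every Ahrr-/- sample was below every Ahr-/- sample, with M2 of Ahrr-/- the closest and M1 and M3 the lowest. Tef fell by 0.77 in Ahrr-/- (standard error 0.18, 95% interval -1.15 to -0.39, limma adjusted p = 0.0138). Without any 1 sample the difference was between -0.90 and -0.65 and stayed past the threshold. It no longer passed with the total count as a covariate (-0.62, adjusted p = 0.0727) or with the summed epithelium markers as a covariate (-0.16, adjusted p = 0.892), and over the settings the adjusted p lay between 0.0121 and 0.892. With 1 sample left out it lay between 0.00372 and 0.0387. Without WT F3 and Ahr-/- F3 Tef differed by -0.81 (adjusted p = 0.0145) and Clock, described next, by 0.51 (adjusted p = 0.0487).

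Clock was at 8.64, 8.74 and 9.25 in Ahr-/- and at 9.05, 9.41 and 9.86 in Ahrr-/-. All 6 Ahrr-/- samples were above the Ahr-/- median, and M1 and M2 of Ahr-/- reached into the Ahrr-/- range. The Clock difference was 0.52 (standard error 0.15, 95% interval 0.19 to 0.85, limma adjusted p = 0.0355). Leaving out any of 6 samples lost the call, namely Ahr-/- F1 (adjusted p = 0.0748), F2 (0.0785), M1 (0.0513) or M3 (0.0921) and Ahrr-/- F3 (0.0812) or M3 (0.0859). It was also lost with no minimum mean (0.0548), with each sample centred on its median (0.0538), without the sex covariate (0.0584), and with the total count (0.0804) or the epithelium markers (difference 0.51, adjusted p = 0.486) as a covariate. Over the settings the adjusted p lay between 0.0185 and 0.486 and the difference between 0.46 and 0.59. With 1 sample left out they lay between 0.0143 and 0.0921 and between 0.44 and 0.62.

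The other activators were higher in Ahrr-/- without passing, Npas2 by 0.53 (limma, standard error 0.21, adjusted p = 0.0967) and Arntl by 0.12 (standard error 0.11). Npas2 was at 5.82, 6.23 and 6.46 in Ahr-/- and at 6.01, 6.68 and 7.47 in Ahrr-/-, with F3 and M3 of Ahrr-/- the highest. Without Ahrr-/- F1 it passed (0.66, adjusted p = 0.0325). The 5 repressors were lower in Ahrr-/-, none past the threshold, by differences from -0.29 for Per1 to -0.08 for Cry1. With the epithelium markers as a covariate the signs of Arntl, Npas2, Per2, Cry1 and Cry2 turned, and no scaling turned a sign. Dbp, without the minimum mean, differed by -0.07 (standard error 0.14).

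Epithelium markers moved with this comparison. All 9 were higher in Ahrr-/- and 5 passed, with a median difference of 1.17, and no marker of the list had a median count of 0. Their sum was 8688, 8807 and 10875 normalized counts for Ahr-/- females, 8096, 7422 and 9495 for Ahr-/- males, 13716, 9391 and 34009 for Ahrr-/- females and 55698, 24688 and 50444 for Ahrr-/- males. Of 8 eosinophil markers tested 4 were lower and 1 higher in Ahrr-/-, with sums of 17666, 38640 and 48567 (lowest, median and highest). Of 5 markers of dividing cells 3 were higher, with sums of 2338, 2814 and 3950 in Ahr-/- and 2305, 4098 and 9655 in Ahrr-/- and Mki67 the most abundant. The neutrophil sum was 24610, 35861 and 46027 in Ahrr-/-, below every Ahr-/- sample, with 2 of 5 markers higher and 1 lower. In the macrophage or dendritic cell, B or plasma cell, fibroblast and endothelium lists 1 marker each was higher, and none of the mast cell or pancreatic acinar markers passed. The values with the epithelium sum in the model are those given above for Tef and Clock, and the part of the other lists was not tested. Every Ahrr-/- sample but F2 was above every Ahr-/- sample in the epithelium sum. That model can therefore tell the epithelium markers apart from genotype only in part.

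Among the other clock genes 1 of 16 passed between the knockouts, Timeless, a partner of the replication and clock machinery, which was higher in Ahrr-/- (0.62, standard error 0.15, limma adjusted p = 0.0142). Of the 8 bHLH-PAS genes tested, Ahrr (5.11), Epas1 (1.05) and Hif1a (0.84) were higher and Ahr (-0.82) was lower, all past the threshold, while Arnt differed by 0.02. Of the immediate early genes Atf3 passed (1.88, adjusted p = 1.24e-06), with Egr1 (1.01) and Jun (0.54) next and not past it. Of the glucocorticoid-responsive genes Errfi1 (1.22) and Klf9 (0.55) passed, and Ddit4 (0.31) did not.

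Females and males were compared over all 18 samples with genotype in the model. Here 1 of 9 clock genes passed, the repressor Per1, where 351 of 11468 genes did (3.06%), a number that lay between 142 and 733 with 1 sample left out. Per1 was at 10.22, 11.17 and 10.63 in WT females against 10.70, 9.91 and 9.59 in males. It was at 11.46, 12.03 and 11.21 in Ahr-/- females against 10.06, 10.31 and 10.85 in the males, and at 11.35, 11.46 and 10.70 in Ahrr-/- females against 10.73, 10.23 and 9.73 in the males. The sexes did not overlap in Ahr-/-, whereas in WT the male M1 and in Ahrr-/- the male M1 exceeded the lowest female. Over all genotypes 8 of 9 females were above the male median. The difference was 0.90 (standard error 0.19, limma adjusted p = 0.0150), and it passed under every alternative run. It was between 0.82 and 1.01 with 1 sample left out (adjusted p between 0.00208 and 0.0417), and over the settings the adjusted p lay between 0.00871 and 0.0326. It was 0.97 without WT F3 and Ahr-/- F3.

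The other repressors did not differ past the threshold between the sexes, with 0.14 for Per2, 0.16 for Cry1, 0.02 for Cry2 and -0.05 for Per3. The activators were lower in females by small amounts that did not pass, with -0.15 for Arntl, -0.16 for Clock and -0.20 for Npas2. Tef differed by -0.07, and Dbp, without the minimum mean, by 0.02. Cry2, Per3 and Tef changed sign under at least 1 alternative or left-out sample.

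Of the other clock genes 1 of 16 passed between the sexes, Bhlhe40, which encodes a repressor of E-box transcription, higher in females (0.64, standard error 0.16, adjusted p = 0.0364 from limma, 9 of 9 females above the male median). Of 10 immediate early genes 3 were higher in females, Jun (0.77), Atf3 (0.75) and Ier3 (0.59), of which Ier3 was named after its values were seen, while Egr1 differed by -0.79 without passing. Of 7 glucocorticoid-responsive genes Ddit4 passed (0.75), followed by Tsc22d3 (0.63) and Zfp36 (0.57), which did not. None of the 8 bHLH-PAS genes tested passed, with differences of 0.20 for Ahr, 0.09 for Ahrr and 0.29 for Arnt. Of 8 macrophage or dendritic cell markers tested 2 were lower in females, with sums of 386, 1504 and 4327 normalized counts in females and 1167, 3593 and 8248 in males and Cd74 the most abundant. The 1 mast cell marker tested and 1 of 5 neutrophil markers were higher in females, and no other marker passed. The part of these markers in the Per1 difference was not tested.

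Whether the genotype difference depended on sex was tested with an interaction term. In both interactions 0 of 9 clock genes passed in limma, as did 0 of 11346 and 0 of 11546 genes (0.0% each). At an unadjusted p under 0.05 there were 0 clock genes in each, with 533 and 544 genes, and voom called 0. For Per1 the interaction was 0.55 (standard error 0.43, adjusted p = 0.955) with Ahr-/- and 0.34 (standard error 0.48, adjusted p = 0.817) with Ahrr-/-. The larger distance between the sexes in Ahr-/- was therefore not shown to differ from that in WT.

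How the clock genes varied together across samples was then examined. Correlations were computed for the 36 pairs of the 9 tested clock genes, on deviations from the mean of each genotype and sex over the 18 samples, with an exact two-sided permutation test within the 6 groups of 3 (46656 orders) and Benjamini-Hochberg adjustment. Of the 36 pairs 15 had a positive and 21 a negative r, with a median of -0.06. At an unadjusted p under 0.05 there were 4 pairs, and 1 passed after adjustment, the activator Npas2 with the repressor Per1.

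Npas2 (chromosome 1, 39193731 to 39363236) was at 7.37, 5.73 and 6.50 in WT females, 6.25, 6.42 and 7.09 in WT males, 6.13, 5.82 and 6.46 in Ahr-/- females and 6.33, 6.40 and 6.10 in Ahr-/- males. In Ahrr-/- it was at 6.01, 6.32 and 7.27 in females and at 6.58, 6.78 and 7.47 in males. WT F1 and M3 and Ahrr-/- F3 and M3, the samples highest in Npas2, were each the lowest in Per1 among the 3 samples of their genotype and sex. Pearson's r was -0.86 (exact permutation p = 0.000107, adjusted p = 0.00386) and Spearman's rho was -0.92 (exact permutation p = 0.000086, adjusted p = 0.00309). Deviations had opposite signs in 14 of 18 samples. Within genotypes r was -0.86 in WT, -0.89 in Ahr-/- and -0.91 in Ahrr-/-. Without the 2 samples farthest from the median of the Npas2 deviations, WT F1 and Ahrr-/- F3, it was -0.85.

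The counts behind the Npas2 values were low, from 5 to 188 per sample, while Per1 had 590 to 4492. Npas2 itself varied with the epithelium markers at r = 0.73 (exact permutation p = 0.0276, rho = 0.63, exact permutation p = 0.0499). Adjusted over 117 such relations these were 0.154 and 0.201. That r was 0.90 in WT, 0.23 in Ahr-/- and 0.65 in Ahrr-/-, and 0.54 without WT F1 and Ahrr-/- F3. With the epithelium sum regressed out of both genes, an alternative chosen after seeing the data, r between Npas2 and Per1 was -0.79 and no longer passed (adjusted p = 0.178). Over all alternatives its adjusted p lay between 0.00309 and 0.178, and the pair was called under each of the others. Per1 varied with the epithelium markers at r = -0.57 (exact permutation p = 0.0503, adjusted p = 0.203). Npas2 and Per1 also went in opposite directions with the eosinophil and neutrophil lists, as given below. The part of those 2 lists in the pair was not tested.

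**Figure D3:**
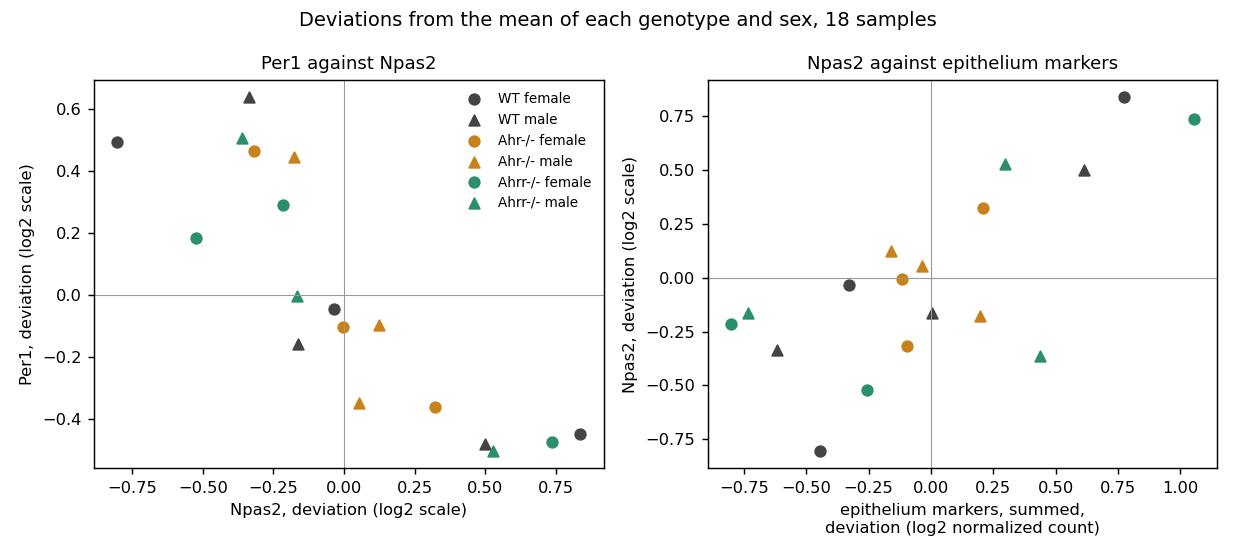
Deviations from the mean of each genotype and sex in 18 samples, with Per1 against Npas2 on the left (log2 scale on both axes) and Npas2 against the log2 summed epithelium markers on the right. Colors give the genotype, circles are females and triangles are males. Per1 is low where Npas2 is high (r = -0.86), and WT F1 and Ahrr-/- F3 lie at the upper right of the right panel.

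The other 3 pairs with an unadjusted p under 0.05 did not pass. Clock and Per1 had r = -0.61 (exact permutation p = 0.0229, adjusted p = 0.275) and rho = -0.59 (exact permutation p = 0.0368, adjusted p = 0.372), and r was 0.0061 in WT, -0.75 in Ahr-/- and -0.93 in Ahrr-/-, and -0.48 without Ahrr-/- M1 and M3. Clock and Cry2 had r = -0.39 (exact permutation p = 0.0220, adjusted p = 0.275) and rho = -0.48 (exact permutation p = 0.0224, adjusted p = 0.372), with -0.65, -0.35 and -0.59 within WT, Ahr-/- and Ahrr-/- and -0.48 without Ahrr-/- M1 and M3. Per2 and Tef had r = 0.59 (exact permutation p = 0.0389, adjusted p = 0.351) and rho = 0.59 (exact permutation p = 0.0510, adjusted p = 0.372), with 0.52 in WT, -0.65 in Ahr-/- and 0.75 in Ahrr-/-, and 0.55 without WT M3 and Ahrr-/- F3. Arntl and Clock, whose products pair, had r = 0.36, and no pair with Arntl passed.

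**Figure D4:**
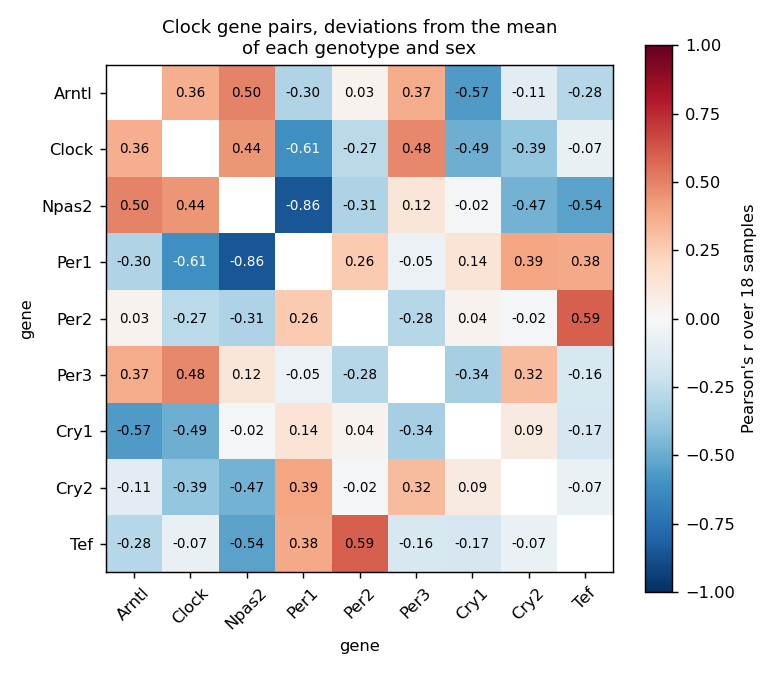
Pearson's r of each of the 36 pairs of clock genes over 18 samples, on deviations from the mean of each genotype and sex, with red for positive and blue for negative values. Npas2 and Per1 (-0.86) have the value farthest from 0.

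Relations of the 9 clock genes to the summed levels of 13 lists (11 marker lists, the immediate early genes and the glucocorticoid-responsive genes) were computed after the values had been seen, 117 in all, with the same exact test and adjustment. Of these 10 passed by r. By rho 9 passed, 7 of them among these 10. Per1 went with the neutrophil list, which is mostly Retnlg, at r = 0.85 (exact permutation p = 0.000171, adjusted p = 0.0191) and rho = 0.83 (exact permutation p = 0.000129, adjusted p = 0.0151), with 0.71, 0.95 and 0.96 within WT, Ahr-/- and Ahrr-/- and 0.84 without WT F2 and Ahr-/- M3. Npas2 went against the eosinophil list at r = -0.82 (exact permutation p = 0.000364, adjusted p = 0.0191) and rho = -0.85 (exact permutation p = 0.000600, adjusted p = 0.0181), with -0.94, -0.82 and -0.92 within the genotypes and -0.81 without Ahrr-/- F3 and M3.

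Per1 also went with the glucocorticoid-responsive genes, at r = 0.72 (exact permutation p = 0.000750, adjusted p = 0.0191) and rho = 0.75 (exact permutation p = 0.000772, adjusted p = 0.0181), with 0.93, 0.81 and 0.98 within WT, Ahr-/- and Ahrr-/- and 0.65 without Ahrr-/- M1 and M3. Clock went against the same list at r = -0.89 (exact permutation p = 0.00315, adjusted p = 0.0410) and rho = -0.74 (exact permutation p = 0.00892, adjusted p = 0.0724), and here r was -0.07 in WT, -0.89 in Ahr-/- and -0.97 in Ahrr-/-, and -0.80 without Ahrr-/- M1 and M3. Per2 went against the fibroblast list at r = -0.75 (exact permutation p = 0.00309, adjusted p = 0.0410) and rho = -0.79 (exact permutation p = 0.00821, adjusted p = 0.0724), with -0.82, -0.18 and -0.92 within the genotypes and -0.66 without Ahrr-/- F1 and F3. Clock went with the markers of dividing cells at r = 0.81 (exact permutation p = 0.00392, adjusted p = 0.0459) and rho = 0.80 (exact permutation p = 0.00495, adjusted p = 0.0579), with 0.42, 0.82 and 0.97 within the genotypes and 0.70 without Ahrr-/- F3 and M3. The rho of these last 3 did not pass after adjustment. Npas2 with the glucocorticoid-responsive genes (rho = -0.70, adjusted p = 0.0254) and Arntl with the neutrophil list (rho = -0.69, adjusted p = 0.0437) passed by rho and not by r (-0.53 and -0.54, adjusted p = 0.0731 and 0.121). The remaining 4 of the 10 were Per1 with the eosinophil (0.73) and endothelium (0.79) lists and Npas2 with the neutrophil (-0.75) and endothelium (-0.80) lists. The endothelium list is mostly Pecam1, with a median of 2427 normalized counts. Cdh5, Kdr and Plvap had medians of 18.95, 11.96 and 10.38, so relations to this list are largely relations to Pecam1. The lists rise and fall together in part, and which of them a clock gene follows was not tested.

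The genes whose deviations were most like those of Arntl, out of 11467 compared over the 18 samples, were Tmtc2 (r = 0.85), Pfkfb4 (0.85), Unc5cl (0.85), Itgb6 (0.85) and Magi1 (0.85), and those most opposed were Plxnd1 (-0.83), Trim8 (-0.83), Mboat7 (-0.82), Mxd4 (-0.82) and Gngt2 (-0.82). For Dbp, whose counts were few, they were Hmgb2 (0.99), Sirt1 (0.92), Rab11b (0.90), Trib1 (0.89) and Ube2n (0.89), and at the other end Zbtb18 (-0.93), Fam114a2 (-0.87), Mettl17 (-0.87), Luc7l (-0.84) and Naa35 (-0.83). The same was done for 4 more genes after their values had been seen. Npas2 was most like Lsr (0.97), Mlec, Thra, Sgpp2 and Cdh1 (each 0.96) and most opposed to P2ry10b (-0.96). Per1 was most like Ets2 (0.97), Nr4a1 (0.96) and Mcl1 (0.94) and most opposed to Gstm2 (-0.92). Tef was most like Fcgr2b (0.95) and Siglecg (0.94), and Clock was most like Uevld (0.92) and most opposed to Tesc (-0.93). These are the extremes of many genes and carry no test.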

How the data were processed

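The table that the authors deposited holds variance-stabilized expression on a log2 scale from DESeq2, after alignment with STAR 2.5.2 to GRCm38 and quantification with RSEM 1.3.0, in libraries of 3842977 to 12046933 counts. Whole counts were recovered by inverting the transformation. Genes with a mean at least 1 above the lowest value were tested with limma 3.58.1 (trend) in R 4.3.3, with sex as a covariate in genotype comparisons, genotype in the sex comparison, and Benjamini-Hochberg adjustment at 0.05. Alternatives changed the minimum mean, the scaling (centring, quantile, log2 of normalized count plus 1), the tool (voom), the covariates and the samples. Correlations were computed in Python 3.11.15 (scipy 1.17.1, pandas 2.3.3, numpy 2.4.6), and figures were drawn with matplotlib 3.10.9. The clock genes, the other clock genes, the bHLH-PAS, immediate early and glucocorticoid-responsive lists and the 11 marker lists were chosen with earlier results of these data known. Named are all 10 clock genes, the other clock genes called (otherwise the 3 largest), bHLH-PAS genes called with Ahr, Ahrr and Arnt, the 3 largest of the remaining 2 gene lists where at least 1 was called, and the 5 genes most and least like Arntl and Dbp.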

Additional observations from a re-analysis of the deposited data

Results flagged for a closer look

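WT F3 and Ahr-/- F3 each stood apart from the other 5 samples of their group in the number of genes with a count, 20244 and 19694. These were 2 of 36 groups examined, of which 1 in 20 would be expected by chance. The cause was not tested. Without both libraries the difference of Tef between Ahr-/- and WT was 0.37 (adjusted p = 0.131) and 586 genes were called.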

How the results depend on the processing

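Where a setting changed a call, a sign or a count, the value is given here or in the results, and the cause was not tested. No clock gene difference called in the results above (Tef and Clock between Ahrr-/- and Ahr-/-, Per1 between the sexes) changed sign under the settings and left-out samples run. Groups of 6 leave small differences undetected, and the time of day of collection is not known.

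Clock genes called between Ahr-/- and WT were 1 with the stricter minimum mean, quantile normalization or voom, where the result above is 0. Between Ahrr-/- and Ahr-/- they were 1 with no minimum mean, centring or no sex covariate, and 0 with the total count or the epithelium markers as a covariate, where the result above is 2. With epithelium regressed out 0 pairs were called, with r = -0.79 for Npas2 and Per1.

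Genes called between Ahr-/- and WT were 236 with the total count as a covariate, 553 with all 18 samples in the fit and 586 without WT F3 and Ahr-/- F3. Between Ahrr-/- and WT they were 4 with no minimum mean, centring, log2 of normalized count plus 1 or voom, 5 with the stricter minimum mean or quantile normalization, 1 with the total count and 14 with all 18 samples. Between Ahrr-/- and Ahr-/- they were 828 with the stricter minimum mean, 994 without the sex covariate, 524 with the total count and 215 with the epithelium covariate. Between the sexes they were 163 with no minimum mean.

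With the epithelium covariate, signs turned for Npas2 between Ahr-/- and WT (0.063), for Arntl (-0.071), Npas2 (-0.40) and Tef (0.10) between Ahrr-/- and WT, and for Arntl (-0.11), Npas2 (-0.0054), Per2 (0.17), Cry1 (0.22) and Cry2 (0.11) between Ahrr-/- and Ahr-/-. They also turned for Cry2 between the sexes (-0.067) and in the interaction of Ahrr-/- and sex for Arntl (0.046), Clock (0.13), Npas2 (0.54), Per1 (-0.30), Per2 (-0.035) and Cry2 (-0.085). Without WT F3 and Ahr-/- F3, signs turned for Per3 between Ahr-/- and WT (0.036), Per2 between Ahrr-/- and WT (-0.064), Cry2 (-0.0059) and Tef (0.034) between the sexes, and Per2 (-0.065), Per3 (0.069) and Tef (-0.027) in the interaction of Ahr-/- and sex. With the total count they turned for Arntl (-0.26), Npas2 (-0.045) and Per2 (-0.23) between Ahrr-/- and WT, where total count and genotype cannot be told apart. In the interaction of Ahr-/- and sex they turned for Npas2 (0.0086), Per2 (-0.10) and Tef (-0.15).

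With centring, signs turned for Per2 between Ahrr-/- and WT (-0.017) and Clock in the interaction of Ahrr-/- and sex (0.046). With quantile normalization they turned for Per2 (-0.037) and Cry2 (-0.0085) between Ahrr-/- and WT, and for Arntl (0.022), Npas2 (0.085) and Cry1 (0.028) in the interaction of Ahr-/- and sex. With voom the sign turned for Per2 between Ahrr-/- and WT (-0.033).

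With 1 sample left out, clock genes called ranged from 0 to 2 between Ahr-/- and WT and from 1 to 3 between Ahrr-/- and Ahr-/-. Genes called ranged from 623 to 1124, from 4 to 25 and from 818 to 2574 in the 3 genotype comparisons (Ahr-/- and WT, Ahrr-/- and WT, Ahrr-/- and Ahr-/-) and from 142 to 733 between the sexes. Differences that crossed 0 were those of Arntl (-0.0084 to 0.11), Per2 (-0.064 to 0.11) and Cry2 (-0.037 to 0.20) between Ahrr-/- and WT, and of Per3 (-0.13 to 0.061), Cry2 (-0.059 to 0.094) and Tef (-0.16 to 0.0069) between the sexes. In the interaction of Ahr-/- and sex they were those of Arntl (-0.15 to 0.085), Npas2 (-0.49 to 0.33), Cry1 (-0.15 to 0.081), Cry2 (-0.13 to 0.41) and Tef (-0.065 to 0.41), and in that of Ahrr-/- and sex those of Clock (-0.24 to 0.17), Npas2 (-0.76 to 0.059) and Per3 (-0.49 to 0.17).

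Samples of the same replicate label in different genotypes had r from -0.592 to 0.473, with no common sign. With so few samples per genotype and sex, these values cannot settle whether the labels pair samples, and no pairing is named. With the label as a block, clock genes called were 1, 0 and 2 and genes called 918, 4 and 1946 in the 3 genotype comparisons in the same order, and Tef between Ahr-/- and WT had an adjusted p of 0.0382.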
